A study of Mus musculus with 6 samples.

Results

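The 30 genes described here carry cholesterol through a cell: 18 enzymes that build it, 4 genes that sense it and set the rate, 3 that move it inside the cell, 1 that stores it as ester and 4 that sense or drive its export. They were taken as a list named by function, drawn up with earlier results of these data known, and each matched 1 of the 55471 Ensembl genes in the deposited table. Expression was measured by sequencing of poly(A) RNA from 10T1/2 cells, a mouse embryonic fibroblast line, in 3 libraries labelled Ranbp2 KO and 3 wild-type (WT) libraries. The study made its KO cells by CRISPR/Cas9 and lists staining, western blot and qPCR among the checks made on the deletion. Both groups were grown in medium with fetal bovine serum, which brings lipoprotein cholesterol, and no treatment was applied. The series calls the 3 libraries of a group biological replicates. Whether the KO cells are a single clone is not stated, and p-values reflect only how much these 6 libraries vary.

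Animal cells make cholesterol from acetyl-CoA by the mevalonate pathway, which also supplies isoprenoids for dolichol, ubiquinone and lipid anchors on proteins. When sterols are scarce in the endoplasmic reticulum, the escort protein Scap carries the SREBP transcription factors to the Golgi for cleavage, and the freed fragment enters the nucleus and switches on nearly all enzymes of the pathway. Insig proteins hold Scap back when sterols are plentiful, and oxysterols then activate the LXR receptors, which raise the exporters Abca1 and Abcg1. Serum-fed fibroblasts use both routes, uptake and synthesis.

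Each library held between 32072817 and 46321967 expected counts. Values are CPM, counts scaled to a common library size with TMM factors, and means are given ± SD with n = 3 libraries. Ranbp2 mRNA itself was not lower in the libraries labelled KO, at 293.8, 288.7 and 292.7 CPM, against 219.6, 249.96 and 248.8 CPM in WT libraries. The log2 difference was 0.28 (SE 0.07, edgeR adjusted p = 0.012), and a count per gene does not show whether a transcript carries an edit. The libraries are therefore called KO-labelled, and higher or lower describes them against WT libraries. Of 9 fibroblast markers, all were tested, 3 were higher and 3 lower, and their summed level was 26789 to 33706 CPM in KO-labelled and 21322 to 24738 CPM in WT libraries. Thy1, one of them, stood at 0.533 CPM in KO-labelled and 58.3 CPM in WT libraries. Summed markers of macrophages reached 3.65 CPM in KO-labelled and 2.68 CPM in WT libraries, with Adgre1 at 0 in all, and those of hepatocytes reached 0.313 CPM in KO-labelled and 0.827 CPM in WT libraries. Endothelial markers summed to 20.9 to 24.7 CPM in KO-labelled and 35.3 to 39.5 CPM in WT libraries, nearly all of it Tek, and epithelial markers to 6.16 to 9.16 CPM in KO-labelled and 2.16 to 2.63 CPM in WT libraries, mostly Cdh1. The part of these markers in the results below was not tested, and in bulk RNA fewer cells of a type and less RNA per cell cannot be told apart.

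The enzymes of cholesterol synthesis stayed close to their WT level, while the exporter gene Abca1, the escort gene Scap and the LXR-beta gene Nr1h2 fell and the sterol carrier gene Stard4 rose. Of the 30 members, 29 had enough counts to be tested, and 4 were called higher and 6 lower at an adjusted p below 0.05 (edgeR quasi-likelihood F test with Benjamini-Hochberg adjustment over all genes). Called members made up 34.5% of those tested, beside 38.9% of the 15454 genes tested in all. By direction, 13.8% of members were higher and 20.7% lower, beside 17.6% and 21.3% of all genes, so the share of called members was near the background. In 15 of 29 tested members the groups did not overlap, beside 51.4% of all genes. Members called with a change of at least 0.5 on the log2 scale were Scap and Abca1, both lower, and none was higher by that much. Of all genes 11.3% were lower and 9.27% higher by at least that much. The median log2 difference was -0.09 over the members and 0.01 over all genes tested.

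**Figure D1:**
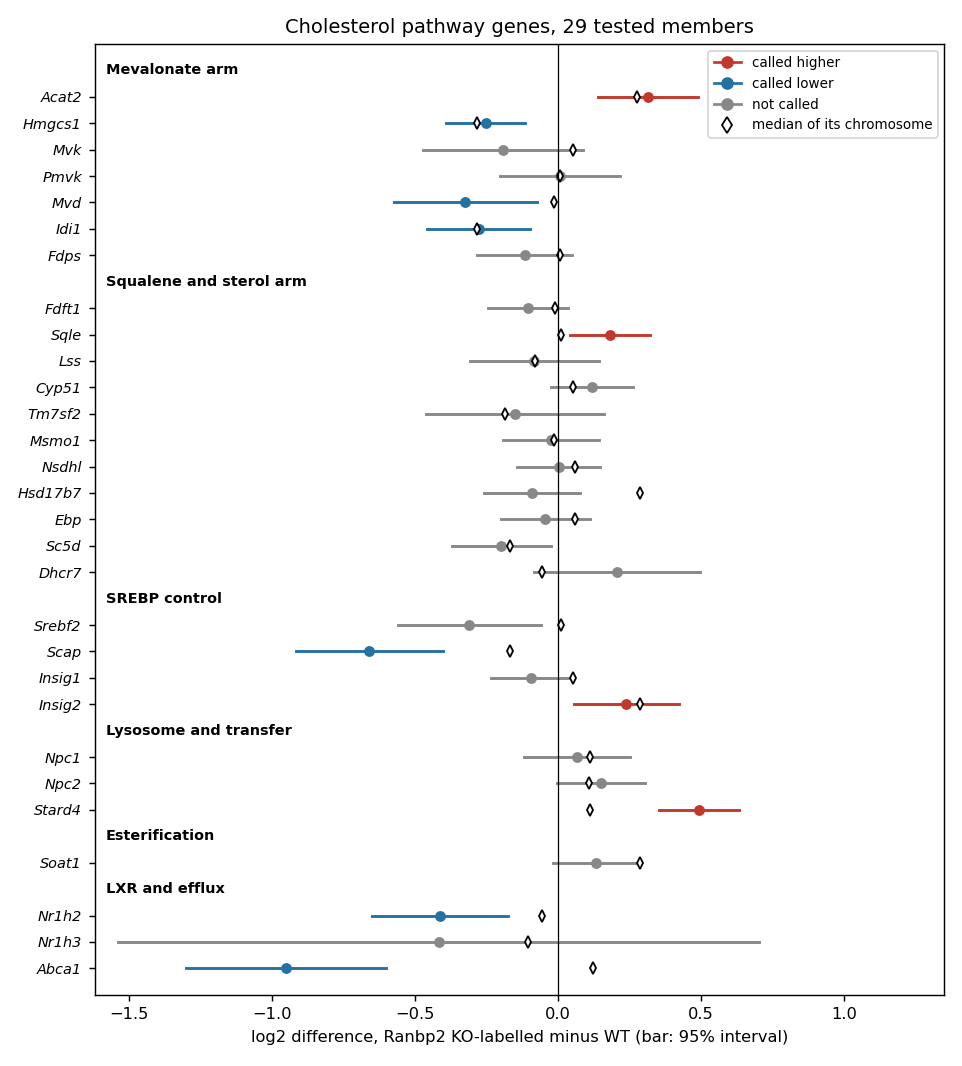
Log2 difference (KO-labelled minus WT) of the 29 tested members, grouped by role, with 95% intervals from the edgeR fit; open diamonds mark the median of all tested genes on the member's chromosome. Synthesis genes lie between -0.32 and 0.31, Stard4 is highest at 0.49, and Abca1 is lowest at -0.95.

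On several chromosomes the median over tested genes was shifted, and Hmgcs1, Idi1, Acat2, Insig2 and Sc5d, which lie on them, sat near that median. Others on them stood away from it, such as Hsd17b7 (-0.09) and Soat1 (0.13) on chromosome 1 and Scap (-0.66) on chromosome 9. Tested genes had a median log2 difference of 0.29 on chromosome 1, 0.27 on chromosome 17, -0.28 on chromosome 13, 0.17 on chromosome 6, -0.19 on chromosome 19 and -0.17 on chromosome 9. These medians are given below beside members whose sign or call they change.

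The mevalonate arm leads from acetyl-CoA to farnesyl diphosphate. Of its 7 enzymes 1 was called higher, 3 lower and 3 were not called, so that 14.3% were higher and 42.9% lower, beside 17.6% and 21.3% of all genes. Hmgcs1, the HMG-CoA synthase of this arm, stood at 184.8, 181.1 and 180.3 CPM in KO-labelled libraries, against 211.9, 215.8 and 223.3 CPM in WT libraries. Every KO-labelled library was under the lowest WT library. Its log2 difference was -0.25 (SE 0.06, edgeR adjusted p = 0.00949). Hmgcs1 (ENSMUSG00000093930) lies on the plus strand of chromosome 13, from 119690379 to 119708260 in GRCm38. With the median of that chromosome taken out, its difference was 0.03 (SE 0.06, adjusted p = 0.747).

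Idi1, the isomerase that makes dimethylallyl diphosphate, is on the same chromosome and behaved alike. It had 110.1, 101.7 and 104.1 CPM in KO-labelled libraries and 113.9, 135.5 and 133.5 CPM in WT libraries, a log2 difference of -0.28 (SE 0.08, edgeR adjusted p = 0.0215) that came to 0.0058 relative to its chromosome. The Idi1 call was lost when KO-labelled library 2 (adjusted p = 0.082), KO-labelled library 3 (0.0711), WT library 2 (0.107) or WT library 3 (0.0536) was left out, and its adjusted p ran from 0.00225 to 0.966 over 13 alternatives. Acat2, the cytosolic thiolase that joins 2 acetyl-CoA units, went the other way. It averaged 118.7 ± 6.63 CPM in KO-labelled and 95.6 ± 7.68 CPM in WT libraries, a log2 difference of 0.31 (SE 0.08, edgeR adjusted p = 0.0108). The gene is on chromosome 17, and relative to that chromosome it stood at 0.04 (SE 0.08, adjusted p = 0.743). Its close copy Acat3 had 0.832 CPM in KO-labelled and 0.931 CPM in WT libraries. Leaving out KO-labelled library 3 gave Acat2 an adjusted p of 0.0538, and leaving out WT library 2 gave 0.0586, in a range of 0.00288 to 0.743 over 13 alternatives.

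Mvd, which decarboxylates mevalonate diphosphate, averaged 9.82 ± 0.113 CPM in KO-labelled and 12.3 ± 1.68 CPM in WT libraries (log2 difference -0.32, SE 0.11, edgeR adjusted p = 0.0441). Relative to chromosome 8 the adjusted p was 0.0593. The Mvd call held under 3 of 13 alternatives, with adjusted p-values from 0.00959 to 0.13. It was lost on leaving out any single library other than WT library 3, with adjusted p-values of 0.0894, 0.0932 and 0.103 for KO-labelled libraries 1, 2 and 3, and 0.13 and 0.121 for WT libraries 1 and 2. The kinases Mvk and Pmvk, which add phosphates to mevalonate, and the farnesyl diphosphate synthase Fdps were not called. Their log2 differences were -0.19 (95% interval -0.47 to 0.09), 0.0065 (-0.20 to 0.22; -0.00043 relative to chromosome 3) and -0.12 (-0.28 to 0.05). Single WT libraries moved Mvk: its difference was -0.06 without WT library 1, and without WT library 3 it was -0.32 and called lower (edgeR adjusted p = 0.031, in a range of 0.031 to 0.696 over 13 alternatives).

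Among the 11 enzymes of the squalene and sterol arm, 1 was called higher, 0 lower and 10 were not called. That made 9.09% higher and 0% lower, beside 17.6% and 21.3% of all genes. Sqle, the squalene epoxidase and a rate-setting step of the pathway, had 175.6, 177.2 and 171.1 CPM in KO-labelled libraries, against 160.4, 149.9 and 152.1 CPM in WT libraries. The groups did not overlap, and the log2 difference was 0.18 (SE 0.06, edgeR adjusted p = 0.0442). The call was lost under 8 of 13 alternatives, over which the adjusted p ran from 0.0235 to 0.268. Among these were leaving out KO-labelled library 1 (0.0661), 2 (0.134) or 3 (0.1), WT library 2 (0.195) or 3 (0.0962), and taking out the median of chromosome 15 (0.0625). Sc5d, the lathosterol desaturase on chromosome 9, averaged 61.5 ± 0.758 CPM in KO-labelled and 70.5 ± 5.97 CPM in WT libraries and did not pass (log2 difference -0.20, edgeR adjusted p = 0.0668). It was called lower without WT library 1 (-0.26, adjusted p = 0.0192) and without a count filter (-0.23, adjusted p = 0.0397), and stood at -0.03 (adjusted p = 0.8) relative to chromosome 9.

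The other enzymes of that arm were not called. Fdft1, the squalene synthase, averaged 93.3 ± 3.40 CPM in KO-labelled and 100.4 ± 2.56 CPM in WT libraries. Lss, which folds squalene epoxide into lanosterol, averaged 51.8 ± 4.92 CPM in KO-labelled and 54.9 ± 5.79 CPM in WT libraries. Cyp51, the lanosterol demethylase, averaged 189.3 ± 3.25 CPM in KO-labelled and 174.4 ± 7.501 CPM in WT libraries. These 3 genes had log2 differences of -0.11, -0.08 and 0.12. Msmo1, the sterol methyl oxidase, averaged 220.6 ± 3.85 CPM in KO-labelled and 224.3 ± 18.3 CPM in WT libraries. Nsdhl, the dehydrogenase that works with it, averaged 55.2 ± 0.821 CPM in KO-labelled and 55.1 ± 1.10 CPM in WT libraries. Nsdhl and Msmo1 had log2 differences of 0.0024 and -0.02, and that of Nsdhl was -0.058 relative to chromosome X. Ebp, a sterol isomerase, averaged 38.8 ± 1.47 CPM in KO-labelled and 40.0 ± 1.599 CPM in WT libraries. Tm7sf2, a sterol reductase, averaged 5.51 ± 0.0469 CPM in KO-labelled and 6.11 ± 0.959 CPM in WT libraries. Its log2 difference of -0.15 came to 0.035 relative to chromosome 19. Dhcr7, a reductase of the last steps, averaged 12.7 ± 1.30 CPM in KO-labelled and 11.03 ± 1.77 CPM in WT libraries, and its difference did not pass. Exons of Fdft1, Tm7sf2 and Cyp51 overlap those of Ctsb, Vps51 and Akap9, so their counts may include reads of the neighbour. Hsd17b7, the ketoreductase, averaged 45.3 ± 1.41 CPM in KO-labelled and 48.3 ± 3.26 CPM in WT libraries, a log2 difference of -0.09. It lies on chromosome 1, and relative to that chromosome it was called lower, at -0.38 (SE 0.08, edgeR adjusted p = 0.00378).

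Across the 18 synthesis enzymes the log2 differences ran from -0.32 to 0.31 with a median of -0.09. Their count of calls, 2 higher and 3 lower, was 27.8% of those tested, beside 38.9% of all genes. The 95% interval of each of the 18 differences lay inside a 1.5-fold change in either direction, which held for 50.6% of all genes tested. Inside a 1.25-fold change lay 10 of the 18, beside 19.3% of all genes. These intervals are per gene and not adjusted for the number of genes. Their width depends on the level of a gene, being wide at low counts, and the 18 were not matched to all genes by level. Per kilobase of annotated exon, KO-labelled levels of these enzymes ran from 1.251 CPM for Tm7sf2 to 46.7 CPM for Acat2, and WT levels from 1.39 CPM for Tm7sf2 to 47.2 CPM for Hmgcs1.

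**Figure D2:**
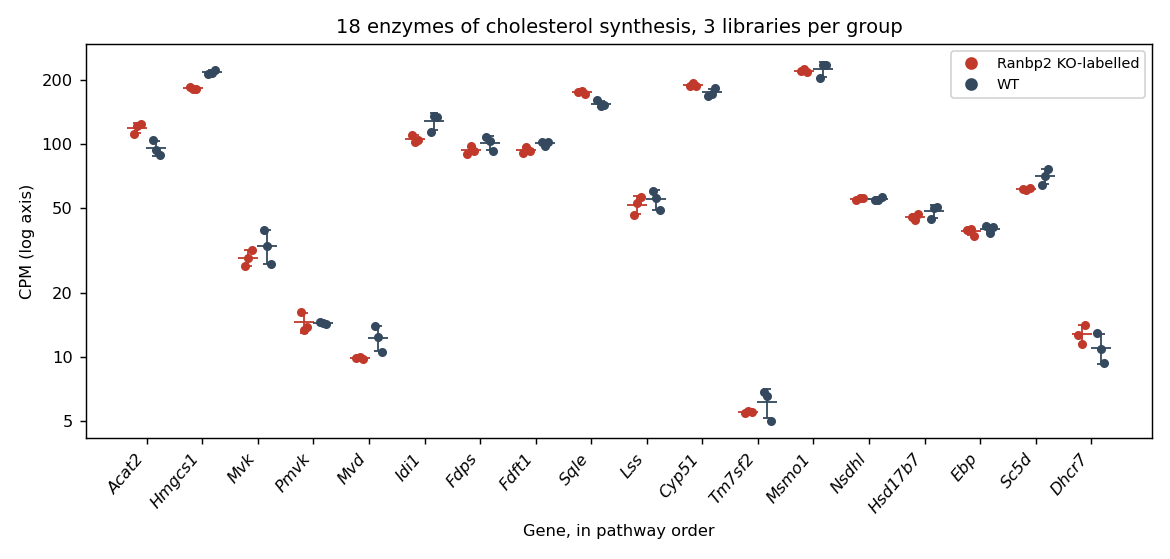
CPM on a log axis of the 18 synthesis enzymes in pathway order, with KO-labelled libraries on the left and WT libraries on the right of each gene; points are libraries and bars mean and SD. Genes differ far more from each other than the groups do, as with Msmo1 at 220.6 and Tm7sf2 at 5.51 CPM in KO-labelled libraries, against 224.3 and 6.11 CPM in WT libraries.

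Promoter windows from RefSeq (GRCm38.p6, 250 bases before to 50 after the start) were at hand for 24 members, 15 of them synthesis enzymes. The sterol regulatory element, the site bound by SREBP, was searched as TCACNCCA, and the site of its partner NF-Y as CCAAT, on both strands. CCAAT stood in the window of 14 of the 15 synthesis genes, or 93.3%, beside 41.1% of all 27025 genes with a window. It stood in 79.2% of the 24 members and in 54.2% of 59 further sterol genes, from the lists described below. TCACNCCA stood in the windows of Hmgcs1, Msmo1 and Srebf2, or 12.5% of members, beside 4.97% of all genes, and these matches overlapped no CCAAT. Synthesis genes had TCACNCCA in 13.3% and the 59 further genes in 3.39%. TCACNCCA is a shortened form: with a C added at its end it was left in Hmgcs1 alone of the members, and in 1.44% of all genes. The E-box CACGTG, also bound by SREBP, stood in 6 of 24 members, or 25.0%, beside 8.09% of all genes. A match is a description of the letters and not a shown site. The windows of Hmgcs1 and Srebf2 are given because they hold the element in an enzyme of the mevalonate arm and in the gene of SREBP2 itself, with its letters in capitals. In Hmgcs1 (chr13:119690101-119690400, plus strand) they stand at -137 to -130 from the start and in Srebf2 (chr15:82147019-82147318, plus strand) at -162 to -155.
Hmgcs1: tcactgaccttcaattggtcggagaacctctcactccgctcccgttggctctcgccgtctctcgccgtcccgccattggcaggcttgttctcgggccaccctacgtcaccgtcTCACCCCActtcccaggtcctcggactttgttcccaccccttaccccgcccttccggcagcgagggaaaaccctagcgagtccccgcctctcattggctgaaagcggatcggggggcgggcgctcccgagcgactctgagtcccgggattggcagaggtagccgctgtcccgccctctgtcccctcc
Srebf2: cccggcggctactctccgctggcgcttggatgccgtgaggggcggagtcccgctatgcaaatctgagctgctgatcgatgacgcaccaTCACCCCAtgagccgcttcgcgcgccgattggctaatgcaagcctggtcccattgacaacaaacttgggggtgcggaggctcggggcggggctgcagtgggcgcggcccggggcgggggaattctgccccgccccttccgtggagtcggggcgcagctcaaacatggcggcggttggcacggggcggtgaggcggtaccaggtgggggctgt

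In the machinery that senses sterols, Scap was lower, and Srebf2 and the Insig genes differed less. Scap (ENSMUSG00000032485, chromosome 9, 110333288 to 110384950, plus strand) had 36.95, 47.1 and 47.7 CPM in KO-labelled libraries, against 76.2, 70.5 and 61.6 CPM in WT libraries. The highest KO-labelled library was under the lowest WT library. The log2 difference was -0.66 (95% interval -0.92 to -0.40, edgeR adjusted p = 0.00152), and -0.49 (SE 0.11, adjusted p = 0.00867) relative to chromosome 9. The transcript 5830462I19Rik, which runs against Scap and shares 985 exon bases with it, had 0.328 CPM in KO-labelled and 0.518 CPM in WT libraries.

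Srebf2, whose product SREBP2 drives the synthesis enzymes, had 152.1, 181.7 and 188.0 CPM in KO-labelled libraries and 244.0, 216.7 and 186.3 CPM in WT libraries. KO-labelled library 3 lay above WT library 3, so the groups overlapped. The log2 difference of -0.31 (95% interval -0.56 to -0.06) just missed the threshold (edgeR adjusted p = 0.0514). It passed with DESeq2 (0.0158), without a count filter (0.00071) and without WT library 3 (0.0129). Under the other alternatives it did not pass. Among these were leaving out KO-labelled library 1 (-0.22, edgeR adjusted p = 0.149) or WT library 1 (-0.22, 0.156), and the replicate block (0.104). Insig1, itself a target of SREBP, had 102.9, 106.3 and 112.5 CPM in KO-labelled and 115.9, 113.7 and 113.5 CPM in WT libraries, a difference of -0.09 (95% interval -0.23 to 0.05) that did not pass (edgeR adjusted p = 0.27). Insig2, the family member less tied to SREBP, had 41.4, 35.4 and 36.3 CPM in KO-labelled and 30.3, 32.2 and 33.4 CPM in WT libraries. It was called higher by 0.24 (SE 0.08, edgeR adjusted p = 0.0437), but it lies on chromosome 1, and relative to that chromosome its difference was -0.05 (adjusted p = 0.689). The Insig2 call held under 3 of 13 alternatives, with adjusted p-values from 0.0282 to 0.689. It was lost on leaving out KO-labelled library 1 (0.123), 2 (0.054) or 3 (0.0682), or WT library 1 (0.105) or 2 (0.112).

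In Srebf2, Scap, Nr1h2, Abca1 and 9 other members, KO-labelled library 1 was the lowest of its group and WT library 1 the highest of its own. This held for 13 of 29 tested members, beside 17.5% of all genes tested. Without KO-labelled library 1 the log2 difference was -0.55 for Scap and -0.79 for Abca1, and without WT library 1 it was -0.59 and -0.90. The edgeR adjusted p of these 4 values ran from 0.00194 to 0.00504. For Nr1h2 the difference was -0.40 without KO-labelled library 1 and -0.28 without WT library 1 (edgeR adjusted p = 0.0405 and 0.0168). Srebf2, given above, did not pass in either case.

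Inside the cell, Stard4 was the member that rose most. Stard4 is a soluble carrier that ferries cholesterol between membranes and is a known SREBP target. It had 95.5, 96.7 and 96.4 CPM in KO-labelled libraries, against 68.1, 71.2 and 65.8 CPM in WT libraries. The groups lay well apart, and the log2 difference was 0.49 (95% interval 0.35 to 0.63, edgeR adjusted p = 0.000231). It lies on chromosome 18 (33199355 to 33213862, minus strand), where the median of tested genes was 0.11, and the call held under all 13 alternatives, with differences of 0.38 to 0.52. Npc1 and Npc2, which pass cholesterol out of the lysosome, were not called. Npc1 averaged 40.7 ± 2.77 CPM in KO-labelled and 38.8 ± 2.81 CPM in WT libraries, and Npc2 averaged 335.7 ± 7.29 CPM in KO-labelled and 302.5 ± 14.9 CPM in WT libraries. Soat1, the acyltransferase that esterifies cholesterol for storage, averaged 127.5 ± 6.65 CPM in KO-labelled and 116.2 ± 4.01 CPM in WT libraries and was not called (log2 difference 0.13, edgeR adjusted p = 0.144). It lies on chromosome 1, with its median of 0.29, and stood at -0.15 relative to it. Npc1, at 0.07, stood at -0.04 relative to chromosome 18. Its exons share 511 bases with those of Rmc1, at 33.2 CPM in KO-labelled and 32.2 CPM in WT libraries, so its counts may include reads of that neighbour.

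**Figure D3:**
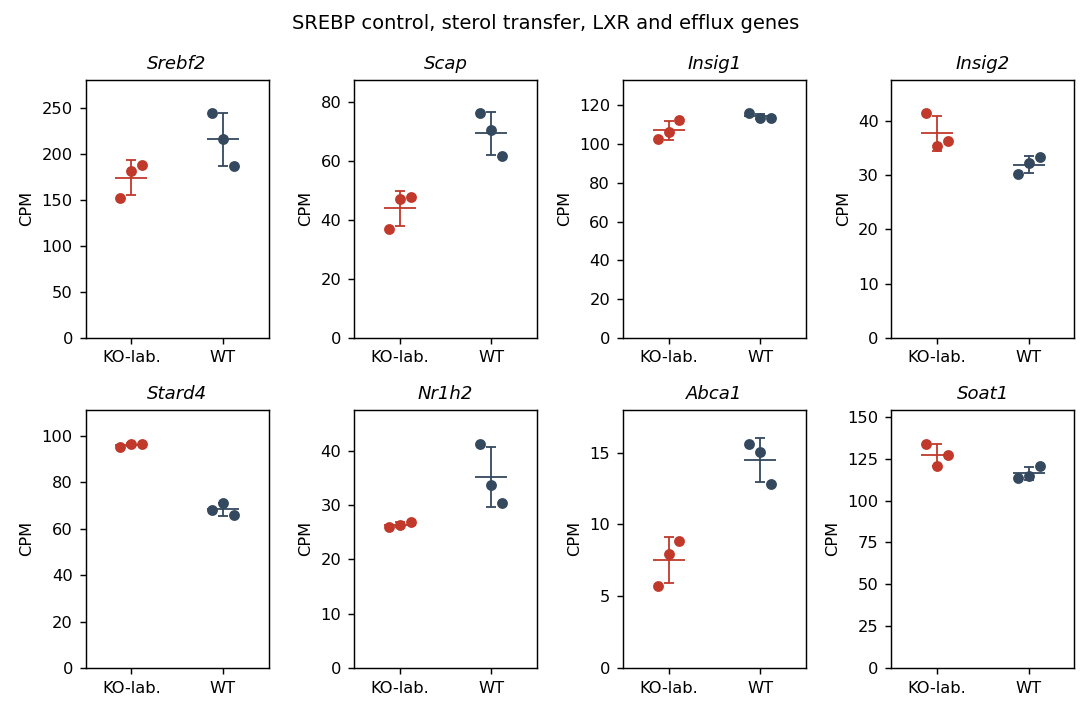
CPM of 8 members in each library, KO-labelled on the left and WT on the right of each panel, with points for libraries and bars for mean and SD; each axis starts at 0. Scap, Nr1h2 and Abca1 lie lower and Stard4 higher in all 3 KO-labelled libraries, while Srebf2 and Soat1 overlap.

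Of the genes that sense excess cholesterol and send it out, Abca1 fell by the largest amount of any member tested. Abca1 is the transporter that loads cholesterol and phospholipid onto apolipoprotein A1. It had 5.71, 7.93 and 8.88 CPM in KO-labelled libraries, against 15.6, 15.1 and 12.8 CPM in WT libraries. These values rest on 219 to 309 expected counts per KO-labelled and 538 to 693 per WT library, and the groups did not overlap. The log2 difference was -0.95 (95% interval -1.30 to -0.60, edgeR adjusted p = 0.00108), a fold of 0.517. Genes on chromosome 4, which holds it (53030787 to 53159895, minus strand), had a median of 0.12.

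Nr1h2, the gene of LXR-beta, had 25.96, 26.4 and 26.9 CPM in KO-labelled libraries, against 41.4, 33.8 and 30.5 CPM in WT libraries. The groups did not overlap, and the KO-labelled libraries were close together while the WT libraries spread. The log2 difference was -0.41 (SE 0.11, edgeR adjusted p = 0.0123), and the median of chromosome 7 was -0.06. Nr1h3, the gene of LXR-alpha, was barely detected, at 0.287, 0.205 and 0.0958 CPM in KO-labelled and 0.265, 0.370 and 0.166 CPM in WT libraries. It rested on 3 to 17 expected counts per library and its interval, -1.54 to 0.70, allowed a change in either direction. Abcg1, the exporter that works with Abca1 in macrophages, had 1 expected count in KO-labelled libraries together, against 3 in WT libraries, too few to test.

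The promoter window of Abca1 (chr4:53159846-53160145, minus strand) is given because it holds the LXR element known from human and mouse Abca1, a direct repeat with a spacer. The repeat was searched on both strands. A longer form with a leading A was tried first and matched 0 of 24 members and 0.0962% of all genes with a window. The form without that A, tried afterwards, matched 1 of 24 members and 0.226% of all genes. Capitals mark the match, which lies on the other strand at -67 to -53 and reads GGTTACTACCGGTCA there.
Abca1: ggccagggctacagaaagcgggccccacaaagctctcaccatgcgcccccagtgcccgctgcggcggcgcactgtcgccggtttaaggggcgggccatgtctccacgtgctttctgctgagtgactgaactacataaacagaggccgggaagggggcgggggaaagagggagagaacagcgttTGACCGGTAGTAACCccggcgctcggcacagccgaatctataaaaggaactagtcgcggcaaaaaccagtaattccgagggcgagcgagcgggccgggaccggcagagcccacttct

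Beyond the 30 members, 74 further genes of sterol handling were read as lists set by function. Of 68 tested, 6 were higher, 24 lower and 38 not called, so that 8.82% were higher and 35.3% lower, beside 17.6% and 21.3% of all genes. Their median log2 difference was -0.09. Lower calls numbered 3 of 8 in uptake, 4 of 11 around SREBP processing, 6 of 14 in sterol transfer, 4 of 13 in isoprenoid branches, 2 of 4 in acetyl-CoA supply, 4 of 12 among LXR targets and apolipoproteins and 1 of 6 in ester and oxysterol handling.

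Among genes that bring cholesterol in and free it from lipoproteins, Lipa and Vldlr changed more than any member. Lipa, the lysosomal acid lipase that hydrolyses cholesteryl esters, had 66.6, 66.98 and 64.2 CPM in KO-labelled libraries, against 207.5, 196.9 and 193.4 CPM in WT libraries (log2 difference -1.596, SE 0.06, edgeR adjusted p = 1.23e-07). Vldlr, a receptor for triglyceride-rich lipoproteins, had 11.8, 13.0 and 12.004 CPM in KO-labelled and 39.98, 41.3 and 37.6 CPM in WT libraries (log2 difference -1.69, SE 0.08, edgeR adjusted p = 2.51e-07). Neither gene's groups overlapped, and both lie on chromosome 19, where the median was -0.19. Mylip, the ligase that degrades lipoprotein receptors, fell by 0.30 on the log2 scale but stood at -0.02 relative to chromosome 13. Scarb1, the HDL receptor, was the gene of that list that rose, by 0.25 on the log2 scale (SE 0.08, edgeR adjusted p = 0.0343). Relative to chromosome 5 it did not pass (0.20, adjusted p = 0.0892), and its naming came after its value had been read. Cd36, Olr1 and Msr1, scavenger receptors of macrophages, were too low to test.

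Genes listed under sterol transfer, not all of them carriers, moved both ways, with 4 higher, 6 lower and 4 not called. That made 28.6% higher and 42.9% lower, beside 17.6% and 21.3% of all genes. Stard5, a relative of Stard4, went in the opposite direction, at 14.1 ± 1.41 CPM in KO-labelled and 30.9 ± 1.73 CPM in WT libraries (log2 difference -1.13, SE 0.09, edgeR adjusted p = 9.85e-06). Gramd1b, an Aster protein that takes plasma membrane cholesterol to the endoplasmic reticulum, averaged 1.64 ± 0.148 CPM in KO-labelled and 6.57 ± 0.954 CPM in WT libraries (log2 difference -2.00, SE 0.16). Cav1, the caveolin that binds cholesterol at the cell surface, averaged 74.2 ± 2.45 CPM in KO-labelled and 101.99 ± 4.47 CPM in WT libraries. Lbr, a lamina protein that is also a sterol reductase, rose by 0.50 on the log2 scale (SE 0.07). It lies on chromosome 1, relative to which it stood at 0.22 (edgeR adjusted p = 0.0485), and it too was picked with its value known.

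Of 11 further genes around SREBP processing, 1 was higher and 4 lower, or 9.09% and 36.4%, beside 17.6% and 21.3% of all genes. Rnf145, a ligase that marks Scap, averaged 57.3 ± 0.581 CPM in KO-labelled and 79.4 ± 3.20 CPM in WT libraries (log2 difference -0.47, SE 0.06, edgeR adjusted p = 0.00036). Erlin1, a sterol-binding protein of the endoplasmic reticulum, averaged 44.3 ± 1.40 CPM in KO-labelled and 61.5 ± 7.37 CPM in WT libraries. Tmem97, a partner of Npc1 that is also a SREBP target, was the gene that rose, at 72.0 ± 3.60 CPM in KO-labelled and 56.7 ± 1.596 CPM in WT libraries. Srebf1, whose SREBP1 serves mostly fatty acid synthesis, was lower by a log2 difference of -0.54 (SE 0.15, edgeR adjusted p = 0.019), and with Erlin2 (-0.22) it was picked with its value known. Of 4 genes for the supply of cytosolic acetyl units, 2 were lower and 0 higher, or 50% lower beside 21.3% of all genes. Slc25a1, the mitochondrial citrate carrier, averaged 41.4 ± 2.52 CPM in KO-labelled and 59.9 ± 4.10 CPM in WT libraries. Aacs, which activates acetoacetate, averaged 59.8 ± 6.46 CPM in KO-labelled and 90.2 ± 10.3 CPM in WT libraries. Acly and Acss2 were not called, with log2 differences of -0.13 and 0.31 (edgeR adjusted p = 0.281 and 0.0923). Relative to chromosome 2, Acss2 was called higher (0.41, edgeR adjusted p = 0.0365).

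Among the branches that use farnesyl diphosphate for other products, 4 of 13 genes were lower and 0 higher. Lower genes made up 30.8% of the list, beside 21.3% of all genes, and higher ones 0%, beside 17.6%. The median log2 difference of the list was -0.0096. Ggps1, which makes geranylgeranyl diphosphate, averaged 27.9 ± 0.824 CPM in KO-labelled and 40.4 ± 4.74 CPM in WT libraries (log2 difference -0.53, SE 0.09). It lies on chromosome 13, and relative to that chromosome it did not pass (-0.25, edgeR adjusted p = 0.0619). Nus1, a subunit of the dolichol synthase, fell by 0.34 and Icmt, which methylates prenylated proteins, by 0.31 on the log2 scale.

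Of 6 tested genes for ester and oxysterol handling, 1 was lower and 0 higher, or 16.7% lower beside 21.3% of all genes. That gene, picked with its value known, was Ch25h, which makes the LXR ligand 25-hydroxycholesterol. It had 0.0522, 0.103 and 0.0639 CPM in KO-labelled libraries, against 3.78, 3.20 and 2.73 CPM in WT libraries. These levels came from 7.52 expected counts in all KO-labelled and 418 in all WT libraries. Ch25h passed the filter on low counts only through the WT libraries, so its call is given as a description and no fitted fold is printed. Of 12 apolipoproteins, LXR targets and related genes, 4 were lower and 0 higher, or 33.3% lower beside 21.3% of all genes. Ncoa5, a coactivator, averaged 42.6 ± 1.77 CPM in KO-labelled and 52.6 ± 1.68 CPM in WT libraries, and its call was lost relative to chromosome 2 (log2 difference -0.20, edgeR adjusted p = 0.0518). Apod, an apolipoprotein, averaged 3.50 ± 0.545 CPM in KO-labelled and 5.29 ± 0.661 CPM in WT libraries. Arl4c, a small GTPase induced by LXR, averaged 25.2 ± 2.15 CPM in KO-labelled and 30.2 ± 0.667 CPM in WT libraries. Smpdl3a, an LXR target phosphodiesterase that was picked with its value known, had 0.554 ± 0.109 CPM in KO-labelled and 1.97 ± 0.275 CPM in WT libraries. Of the 8 genes of that list that were not called, Lpcat3 had a log2 difference of 0.17 (edgeR adjusted p = 0.0628) and Apoe one of -0.10 (edgeR adjusted p = 0.763), both picked with their values known.

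**Figure D4:**
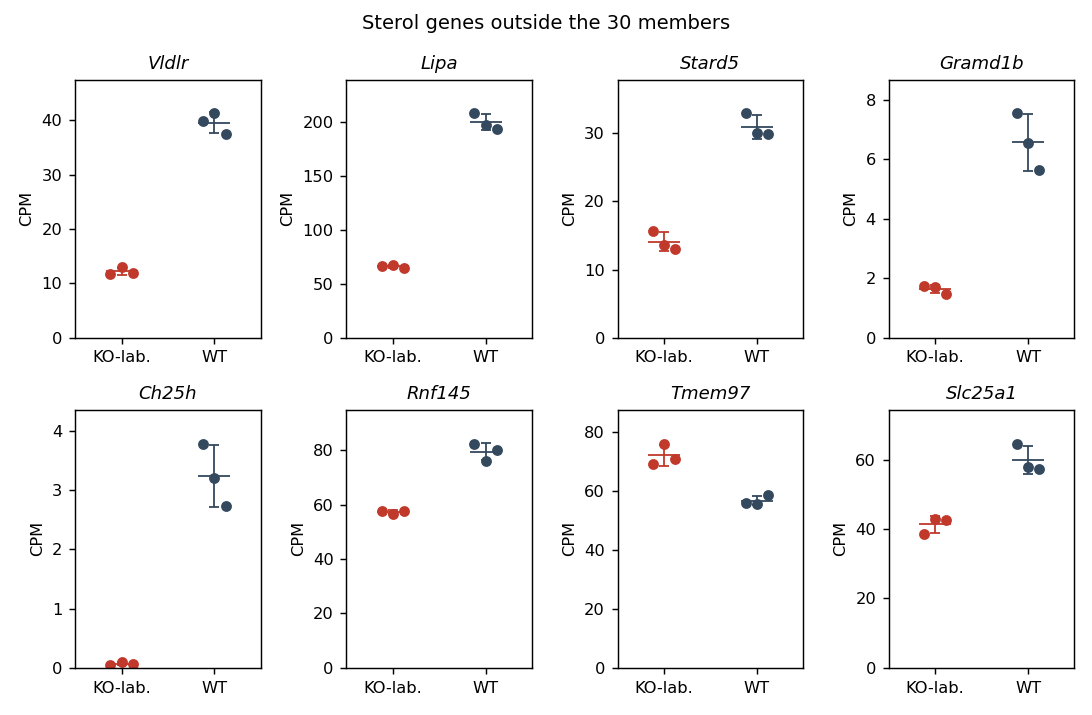
CPM of 8 sterol genes outside the 30 members in each library, KO-labelled on the left and WT on the right, with bars for mean and SD and each axis starting at 0. Lipa averages 65.9 CPM in KO-labelled and 199.3 CPM in WT libraries, Vldlr 12.3 and 39.6 CPM, and the groups overlap in 0 of the 8 genes, beside 51.4% of all genes tested without overlap; genes were drawn because they had been called.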

How the data were processed

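The authors deposited expected counts per gene, 1 column per library, made with cutadapt and RSEM on GRCm38, per the submitters' processing notes. For tool versions, aligner and strandedness the entry is: not given in the sources used here. RSEM divides reads that match several genes, so reads of overlapping or near-identical genes may be shared.

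Symbols and positions came from GENCODE M21, a GRCm38 annotation, which matched 55230 of 55471 identifiers. Expected counts were rounded, filtered with filterByExpr (minimum count 10, minimum total 15), scaled with TMM and compared with edgeR 4.0.16 (R 4.3.3) by the two-sided quasi-likelihood F test, with no term beside genotype. Benjamini-Hochberg adjustment ran over all 15454 genes tested. Intervals are 95% intervals from that fit. An exact permutation test of 3 against 3 cannot go below p = 0.1. The steps were tested on simulated data.

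The 30 members and the other lists were chosen with earlier results of these data known. Library values were to be given for called members changed by at least 0.5 on the log2 scale and for Srebf2, Insig1, Insig2, Hmgcs1, Sqle, Abca1, Abcg1 and Nr1h3; those of other members were added after they were seen. Of each further list up to 3 called genes with at least 5 CPM and the smallest adjusted p were named. Alternatives were DESeq2 1.42.0 and its size factors, library size alone, other count filters, a replicate block, chromosome medians as offsets, and leaving out each library.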

Additional observations from a re-analysis of the deposited data

How the results depend on the processing

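Scap, Stard4, Nr1h2 and Abca1 kept their direction and their call under all 13 alternatives, with the highest adjusted p at 0.0405 for Nr1h2. The other called members each lost the call under at least 1 alternative. Calls were gained for Srebf2, Sc5d, Mvk and Hsd17b7, each under at least 1 alternative. With 4 members higher at first, the count was 2 without a count filter, 2 with the replicate block and 1 with chromosome medians as offsets. For synthesis enzymes the higher count of 2 became 1, 1 and 0 under the same 3 alternatives, and the lower count of 3 became 1 with the block and 1 with chromosome offsets, where the median difference of synthesis moved to -0.0053. Leaving out each library in turn gave 1 to 3 members higher and 4 to 7 lower, 0 to 2 synthesis enzymes higher and 1 to 3 lower, 4353 to 6106 genes called in all and a Ranbp2 difference of 0.22 to 0.31. Chromosome offsets turned the sign of Hmgcs1 (0.030), Idi1 (0.0058), Insig2 (-0.049), Soat1 (-0.15), Npc1 (-0.044), Tm7sf2 (0.035), Nsdhl (-0.058) and Pmvk (-0.00043). Pmvk and Nsdhl, both near 0, also turned with DESeq2 (-0.0063 and -0.010) and without a filter (-0.027 and -0.031), and without 1 library Pmvk ran from -0.087 to 0.060, Nsdhl from -0.012 to 0.018 and Msmo1 from -0.094 to 0.012. The chromosome offset itself is the cause of its turns by construction; the cause of the others was not tested. The labels do not say whether the replicate numbers pair the libraries. Deviations of same-numbered libraries correlated at 0.0224, -0.0811 and -0.0343 across genes. Those of differently numbered libraries correlated at -0.0955 to 0.152, and with 3 libraries per group these values cannot settle a pairing. The block called 4994 genes in place of 6011. Depth limits Nr1h3 and Abcg1.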
